A study of Mus musculus with 6 samples.

Results

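Collagens are the main structural proteins of connective tissue, and each is a trimer of chains that are encoded by separate genes. The genes described here are all collagen chain genes in the count tables: those annotated as protein-coding in GENCODE vM21 whose symbol reads Col, a type number, a and a chain number. There were 44 such genes among 55536 genes in all, of which 22028 were protein-coding. By the way their products assemble they fall into 11 fibrillar chains, 6 basement membrane network chains (type IV), 3 short-chain network chains (types VIII and X), 9 FACIT chains (fibril-associated collagens with interrupted triple helices), 6 beaded filament chains (type VI), 4 transmembrane chains, 2 multiplexins (types XV and XVIII), 1 anchoring fibril chain (type VII) and 2 others (Col26a1 and Col28a1).

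The 6 RNA-seq libraries came from stromal cells of a mouse model of fibrosis around implanted material, sorted as CD45-, CD31- and CD29+. In 3 libraries the cells were positive for tdTomato, which reports expression of p16, the senescence-associated cell cycle inhibitor made from Cdkn2a (p16+), and in 3 they were negative (p16-). Both groups carried the tdTomato p16 reporter on the C57Bl/6 background. The protocols in the labels describe resection of both quadriceps at 10 weeks of age, carprofen for all animals, defects filled with 30 mg of polycaprolactone particles, with decellularized extracellular matrix or with 50 uL of saline, and harvest at 1 or 6 weeks. The filler and the harvest time of these libraries are not given in the sources used here. Nothing in the labels says that the libraries came from separate animals, so that the p-values measure the spread between these libraries, which may be technical.

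A collagen chain is recognised by long stretches of Gly-X-Y triplets, in which glycine is the residue small enough to sit in the middle of the triple helix. Type I, III and V chains build the fibrils of muscle connective tissue, type VI forms the microfibrils around cells, type IV forms the sheet of the basement membrane that wraps fibres, vessels and nerves, and FACIT chains sit on the surface of fibrils. Stromal cells of muscle are the source of much of this matrix, and scar tissue after injury is rich in fibrillar collagen.

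The repeat is written in the genes themselves. In fibrillar chains it often takes the form of exons of 54 bases that hold 6 triplets of codons and begin with a glycine codon. Such an exon is shown here for the most abundant chain (Col3a1), for Col1a1, for a type IV chain that fell (Col4a5) and for the chain with the largest fall (Col20a1), 5′ to 3′ on the coding strand of GRCm38.p6, with the glycine codons in capitals. They are exon 8 of Col1a1 at chr11:94939904-94939957, exon 6 of Col3a1 at chr1:45325360-45325413, exon 7 of Col4a5 at chrX:141575988-141576041 and exon 27 of Col20a1 at chr2:181009377-181009430, all on the plus strand.
Col1a1: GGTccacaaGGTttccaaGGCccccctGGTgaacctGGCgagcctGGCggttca
Col3a1: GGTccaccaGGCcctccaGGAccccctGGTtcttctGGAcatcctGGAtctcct
Col4a5: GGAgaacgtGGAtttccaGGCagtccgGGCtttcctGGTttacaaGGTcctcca
Col20a1: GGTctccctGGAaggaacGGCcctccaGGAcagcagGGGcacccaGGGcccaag

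The classes differ in how long this repeat runs without a break. Counted in the longest coding sequence of each gene, with runs of at least 6 triplets, the longest run held 216 to 344 triplets in the 11 fibrillar chains, which had 21 to 33 exons of 54 coding bases each. The type IV chains had 22 to 27 runs, none longer than 66 triplets, and only 1 to 3 exons of 54 coding bases. The longest runs of the type VI chains held 37 to 87 triplets. Col20a1 had 4 exons of 54 coding bases. Col12a1, Col14a1 and Col20a1, a subgroup of FACIT chains, had longest runs of 32 triplets and held between 8.19% and 14.0% of their codons in runs, so that most of these proteins is not collagen helix.

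The libraries held 35253406 to 39103909 counts each. Levels are given as CPM, counts scaled to the normalized size of each library, and 3 counts came to 0.0737 to 0.0875 CPM. Cdkn2a, the gene behind the reporter, had 7.82 ± 0.961 CPM in p16+ and 2.13 ± 0.329 in p16- libraries (mean ± SD, n = 3 in each group, as throughout), a log2 fold change, p16+ over p16- as for all genes, of 1.88 (adjusted p = 2.0e-05). CPM of Itgb1, which encodes CD29, was 891 and 758, that of Ptprc (CD45) 7.77 and 4.89, and that of Pecam1 (CD31) 6.73 and 3.34 in p16+ and p16- libraries. The first principal component, with 41.2% of the variance, separated the groups, and the second, with 18.1%, set p16+ replicates 2 and 3 at opposite ends. Of the 8 stromal identity genes (such as Pdgfra, Pdgfrb, Dpt and Lum) 3 were higher, 2 lower and 3 did not pass the test, and their summed level was 12100 to 12255 CPM in p16+ and 12365 to 12666 CPM in p16- libraries. In bulk libraries fewer cells of a type and less RNA per cell cannot be told apart.

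Collagen chains as a group were higher in p16+ cells. Of the 44 genes, 41 passed the filter on low counts; 25 of these were higher, 6 lower and 10 did not pass the threshold (adjusted p under 0.05, edgeR's quasi-likelihood test with Benjamini-Hochberg adjustment over 15903 genes). That is 75.6% of the collagen genes tested, against 16.7% of all genes tested (8.69% higher and 8.04% lower). The median log2 fold change of the 41 genes was 0.56, and that of all genes tested was -0.0081. In 34 of the 41 genes the 3 p16+ values and the 3 p16- values did not overlap, 28 of them higher and 6 lower, where 33.1% of all genes tested showed no overlap. With library totals alone as the scaling, 36.0% of all genes called were higher, against 52.0% with the normalization used here; 24 collagen genes were then higher and 6 lower.

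**Figure D1:**
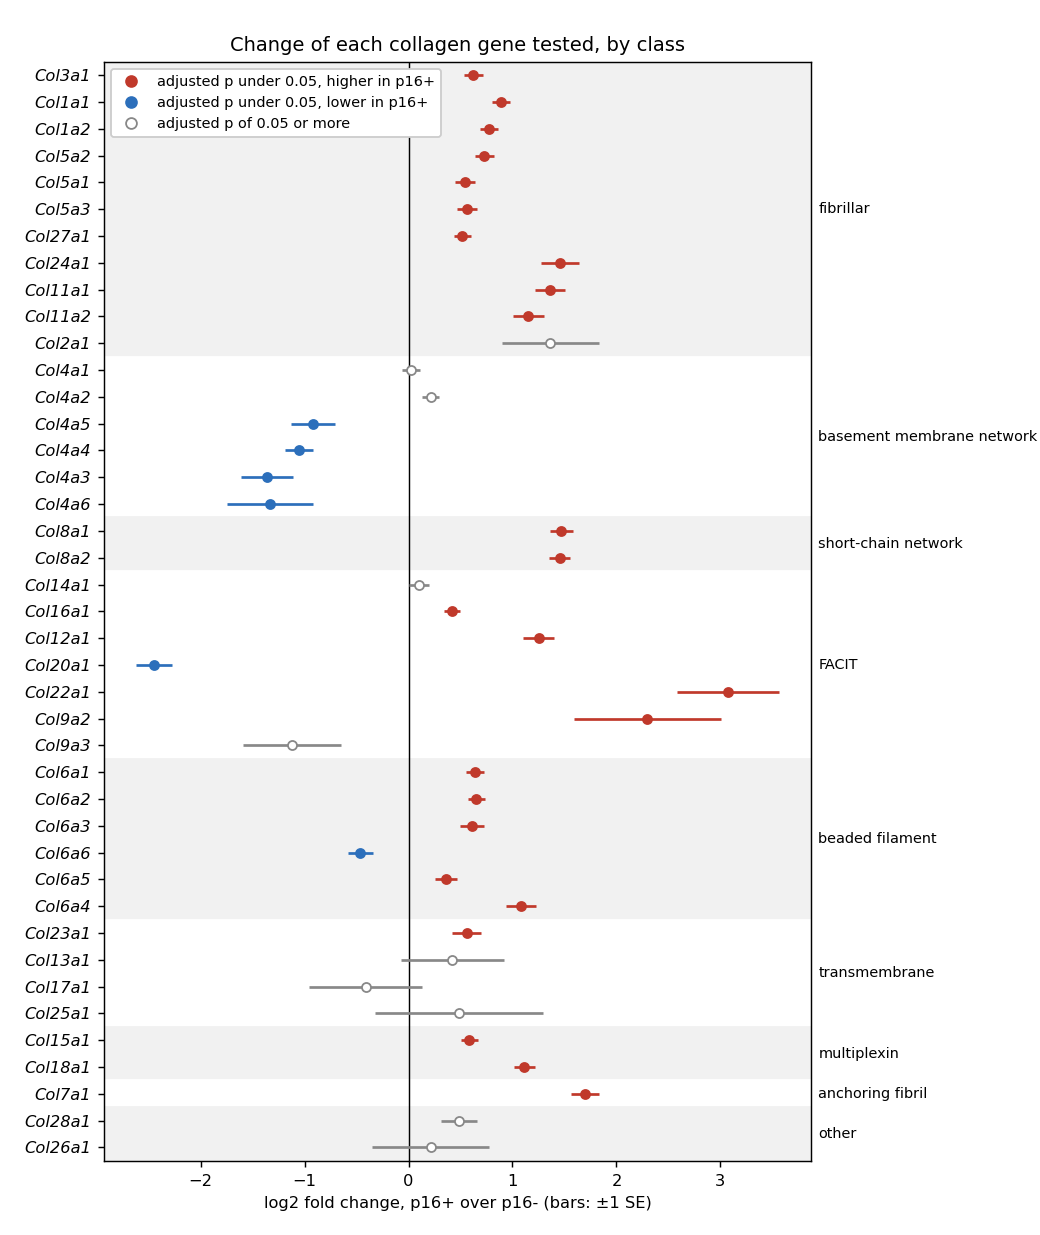
Log2 fold change of p16+ over p16- for each of the 41 collagen genes tested, arranged by class, with bars of 1 standard error on each side; filled points passed the adjusted p threshold of 0.05 and open points did not. All 11 fibrillar chains lie to the right of 0, the type IV chains lie at or left of 0 apart from Col4a2, and FACIT chains spread from -2.45 (Col20a1) to 3.07 (Col22a1).

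By class, the calls fell as follows. Among fibrillar chains 10 of 11 were higher and none lower, with a median log2 fold change of 0.77. In the basement membrane network none of the 6 chains was higher and 4 were lower, with a median of -0.99. Both tested short-chain network genes, both multiplexins and the anchoring fibril gene were higher. FACIT chains were mixed, with 4 higher, 1 lower and 2 not passing among 7 tested. Of the beaded filament chains 5 were higher and 1 lower, and of the transmembrane chains 1 was higher and 3 did not pass. Whether classes differed from each other was not tested.

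**Figure D2:**
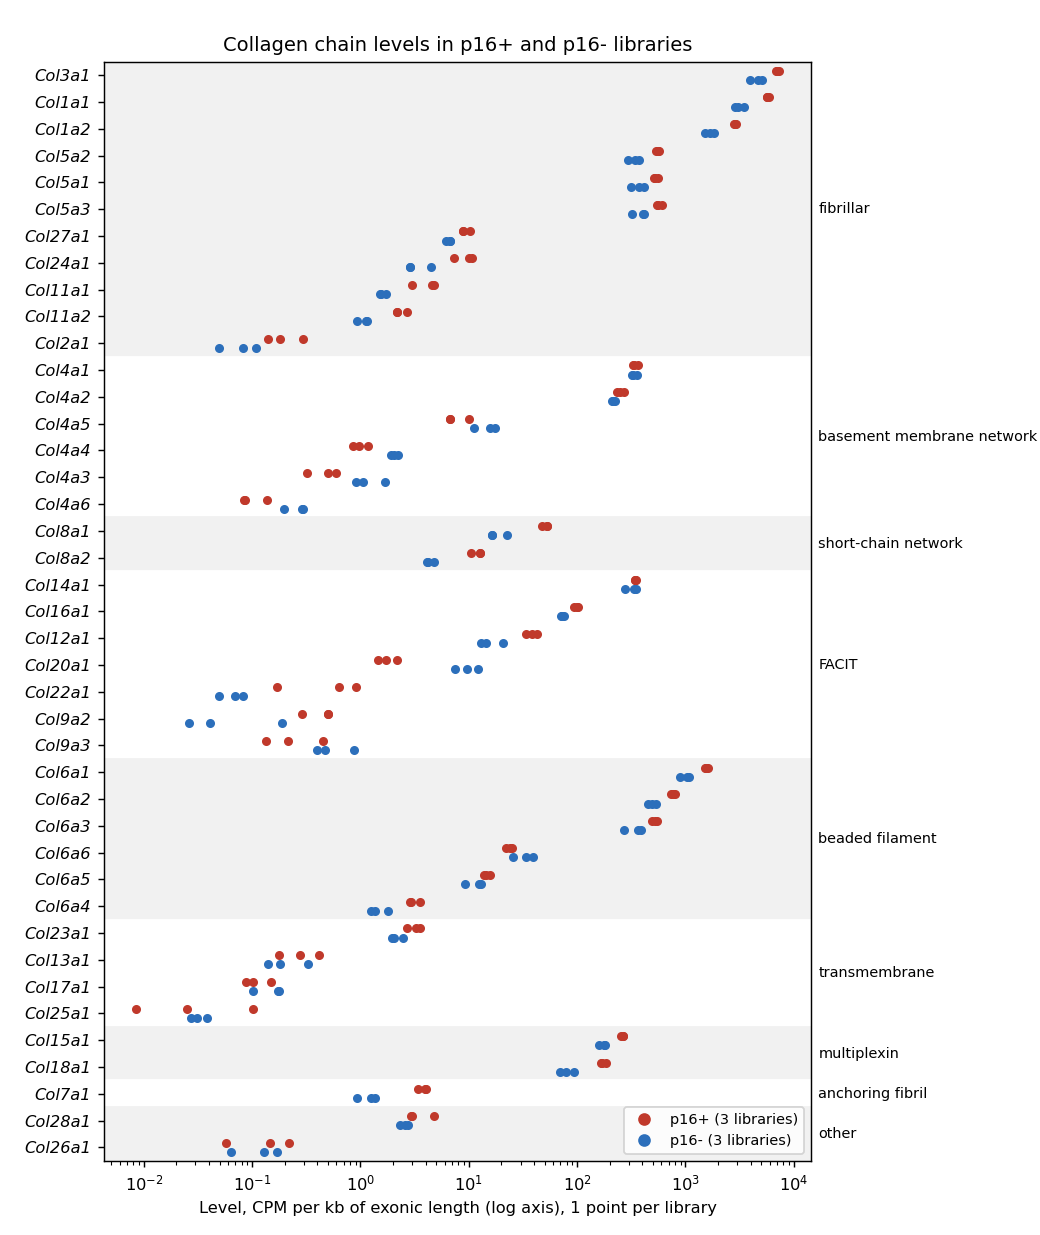
Level of each tested collagen gene in CPM per kb of exonic length on a log axis, 1 point per library, arranged by class. Levels span from Col3a1, with means of 7047 (p16+) and 4576 (p16-), to chains below 0.1, and the 3 points of a group mostly lie closer together than the groups do for the abundant fibrillar and type VI chains.

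The main fibril chains were among the most abundant messages of p16- cells and were higher still in p16+ cells. Col3a1, the chain of type III collagen, which gives distensible fibrils, had 66929, 71708 and 68888 CPM in the 3 p16+ libraries and 39041, 49428 and 46289 CPM in the 3 p16- libraries, and was the most abundant gene of all in both groups. Its log2 fold change was 0.62 (SE 0.09, adjusted p = 0.000156), or 1.54-fold. Col1a1, a chain of type I collagen, the stiff fibril of scar, tendon and bone, had 37182, 38870 and 37441 CPM against 18732, 22636 and 19873 CPM. Every p16+ value lay above every p16- value, giving a log2 change of 0.89 (SE 0.09, adjusted p = 2.66e-06). Its partner Col1a2 had 34898, 36245 and 35825 CPM against 18880, 22696 and 21060 CPM, giving a log2 change of 0.77 (SE 0.08, adjusted p = 8.83e-06). Per kb of exonic length, mean levels in p16+ and p16- libraries were 7047 and 4576 CPM for Col3a1, 5764 and 3110 for Col1a1, and 2869 and 1680 for Col1a2. In p16+ libraries 14 collagen genes stood among the 100 most abundant genes, and in p16- libraries 13.

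Type V collagen starts fibrils and limits their width, and its 3 chains were also higher. Col5a2 had 5109 to 5485 CPM in p16+ and 2813 to 3584 CPM in p16- libraries, a log2 fold change of 0.73 (adjusted p = 3.52e-05). Col5a1 had a log2 fold change of 0.54 (adjusted p = 0.00099) and Col5a3 one of 0.56 (adjusted p = 0.000677), and in each of them the groups did not overlap. Larger rises were found among minor fibrillar chains. Col24a1, which encodes a minor fibrillar chain known from developing bone, had 55.7, 81.4 and 76.3 CPM against 21.9, 33.8 and 21.9 CPM (log2 fold change 1.46, SE 0.19, adjusted p = 0.000328). Col11a1, a chain that nucleates cartilage fibrils and is also known from activated fibroblasts, had 58.0, 38.1 and 61.3 CPM against 19.9, 21.9 and 19.4 CPM (log2 fold change 1.36, SE 0.14, adjusted p = 6.18e-06). In both genes the lowest p16+ library was above the highest p16- library, and the p16+ libraries varied more than those of the abundant chains. Col11a2 had a log2 fold change of 1.15 (adjusted p = 4.99e-05) and Col27a1 one of 0.52 (adjusted p = 0.000333).

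Col2a1, the main chain of cartilage fibrils, was the only fibrillar gene that did not pass. It had 99, 48 and 57 counts in p16+ and 31, 18 and 37 counts in p16- libraries, a log2 fold change of 1.36 (adjusted p = 0.0589), and passed in DESeq2 (adjusted p = 0.0238) and when only genes of at least 1 CPM in 3 libraries were tested (adjusted p = 0.0394). Markers of other skeletal cells were also present. Of 8 osteoblast markers 6 were tested and 3 of these were higher: Spp1, Runx2 (log2 fold change 0.94, adjusted p = 2.64e-05) and Dmp1 (0.81, adjusted p = 0.0476). The summed level of all 8 was 378 to 475 CPM in p16+ and 131 to 186 CPM in p16- libraries, most of it Spp1 (mean CPM 376 and 118). The defining markers Bglap and Ibsp were not tested. They were at 0 in all p16+ libraries and at means of 0.0588 and 0.00841 CPM in p16- libraries. Of 7 tendon markers 3 were higher and none lower (3139 to 3998 against 2135 to 2337 CPM), most of it Thbs4 (2637 and 1414 CPM). Scx (2.77 and 2.25 CPM, adjusted p = 0.674) and Tnmd (64.6 and 56.6 CPM, adjusted p = 0.310) did not pass. Fmod and Kera of the tendon list and Comp of the chondrocyte list also belong to the fibril organizers described further on. Of 10 chondrocyte markers 9 were tested, with 2 higher and 1 lower (180 to 259 against 148 to 208 CPM). Most of the sum was Comp (142 and 108 CPM), which did not pass (adjusted p = 0.260). Acan was higher (5.59 and 2.07 CPM) and Matn1 was at 0 in all libraries. Cnmd was lower, at low levels (0.205 and 1.22 CPM, log2 fold change -2.56, adjusted p = 0.0302). Of 10 pericyte and smooth muscle markers 6 were higher and none lower, at 2034 to 2112 against 1348 to 1710 CPM. The part of these cells in the rise of the fibrillar chains was not tested.

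Type IV collagen split within itself. Col4a1 and Col4a2 form the common network found under all endothelium and around muscle fibres, and they are a pair of neighbouring genes read away from a shared start. Col4a1 had 2421, 2485 and 2728 CPM in p16+ and 2390, 2430 and 2690 CPM in p16- libraries, values that overlapped (log2 change 0.02, SE 0.08, adjusted p = 0.895). Col4a2 had 1548, 1652 and 1777 CPM against 1412, 1392 and 1494 CPM, without overlap but short of the threshold (log2 fold change 0.21, adjusted p = 0.0868); DESeq2 gave an adjusted p of 0.0225. The other 4 chains form the restricted networks of kidney, lung, smooth muscle, nerve and skin. All 4 were lower in p16+ libraries.

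Col4a5, the most abundant of these minor chains, had 66.9, 45.2 and 45.0 CPM in p16+ and 74.5, 104 and 118 CPM in p16- libraries. The groups did not overlap, but the highest p16+ value (replicate 1) lay close to the lowest p16- value (replicate 1); the log2 change was -0.92 (SE 0.21, adjusted p = 0.0198), and without p16- replicate 2 the adjusted p was 0.138. Col4a4 had 12.4, 9.04 and 10.2 CPM against 21.6, 20.2 and 23.8 CPM, giving a log2 change of -1.05 (SE 0.14, adjusted p = 5.26e-05). Col4a3 had 5.97, 3.21 and 4.96 CPM against 10.6, 9.0 and 16.8 CPM, giving a log2 change of -1.36 (SE 0.25, adjusted p = 0.00107). The lowest of the chains, Col4a6, had 1.10, 0.681 and 0.672 CPM against 2.29, 1.56 and 2.34 CPM (log2 fold change -1.33, adjusted p = 0.0363), and its adjusted p was 0.104 to 0.139 without p16+ replicate 2, without p16+ replicate 3, without p16- replicate 1 or without p16- replicate 3. Per kb of exonic length, the mean level of Col4a5 was 7.80 (p16+) and 14.8 CPM (p16-), against 341 and 335 for Col4a1, so that the minor chains were a small part of the type IV message in both groups.

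Cells that carry basement membranes left different traces. Of 10 Schwann cell markers 7 were lower and 1 higher in p16+ libraries, with a summed level of 86.4 to 92.0 CPM in p16+ and 118 to 191 CPM in p16- libraries; Sox10, the master regulator of these cells, had 2.42 and 8.05 CPM. Of 10 endothelial markers 5 were higher and 1 lower. Their sum was 87.6 to 111 CPM against 179 to 213 CPM, of which Tek alone gave 49.2 and 168 CPM; without Tek, an exclusion chosen after its value was seen, the sum was 44.7 to 56.0 against 26.0 to 32.6 CPM. Only 2 of 8 epithelial markers passed the filter, with Krt19 lower (4.06 and 19.9 CPM). Krt5 and Krt14 were not tested, at 0 in all p16+ libraries and at means of 0.0164 and 0.0917 CPM in p16- libraries. The part of these cells in the fall of the minor type IV chains was not tested.

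**Figure D3:**
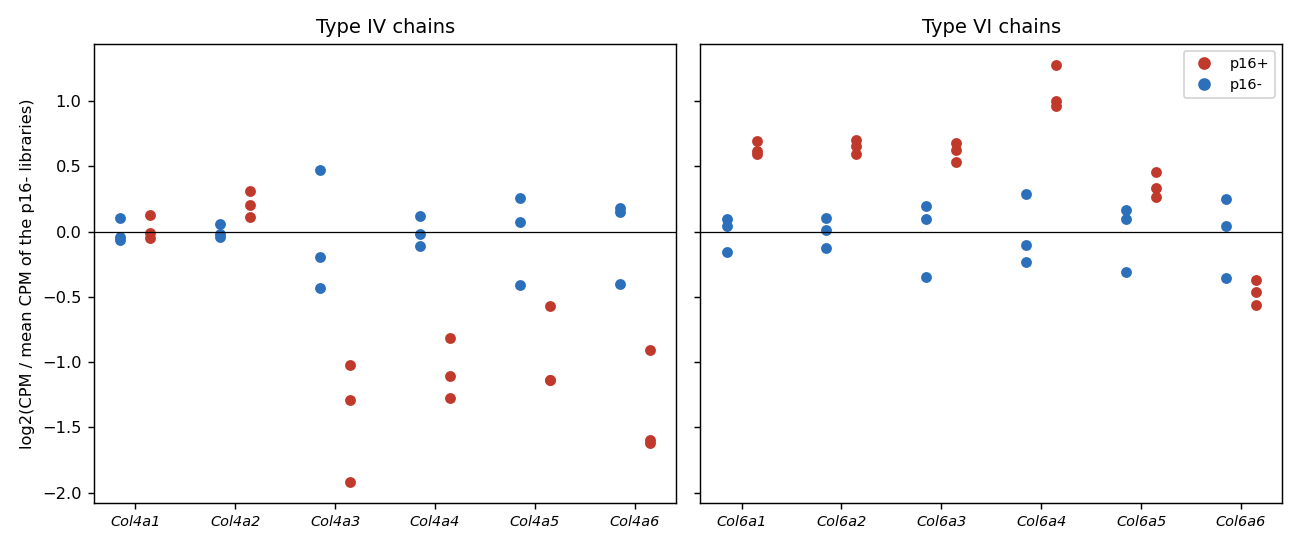
Log2 of the CPM of each library over the mean CPM of the p16- libraries, for the 6 type IV chains (left) and the 6 type VI chains (right), 1 point per library. Col4a1 and Col4a2 stay near 0 while Col4a3 to Col4a6 lie below it in p16+ libraries; Col6a1 to Col6a5 lie above it and Col6a6 below.

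The type IV genes lie in pairs. Col4a3 and Col4a4 are read in opposite directions from starts 71 bases apart on chromosome 1 and were both lower, and Col4a5 and Col4a6, which are arranged the same way 1308 bases apart on chromosome X, were both lower. Col4a1 and Col4a2, whose 5′ ends overlap by 22 bases on chromosome 8, were both among the genes that did not pass. The stretch between Col4a4 and Col4a3, chr1:82586850-82586920 in GRCm38.p6, is shown on the strand of Col4a3 because it is all that separates the starts of a pair that fell together; it holds none of the 6 motifs listed further on.
Col4a4-Col4a3: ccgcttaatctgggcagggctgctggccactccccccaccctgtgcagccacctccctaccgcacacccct

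Type VI collagen, the beaded microfibril next to the cell surface, had its standard chains raised together. Col6a1 had 6635, 7107 and 6734 CPM in p16+ and 3935, 4703 and 4533 CPM in p16- libraries, giving a log2 change of 0.64 (SE 0.09, adjusted p = 6.27e-05). Col6a2 (log2 fold change 0.65, adjusted p = 3.97e-05) and Col6a3 (0.61, adjusted p = 0.00116) changed by nearly the same amount, and in none of the 3 genes did the groups overlap. The alternative chains Col6a4, Col6a5 and Col6a6 lie side by side on chromosome 9, 28.8 and 27.9 kb apart, and did not move as a block. Col6a4 had 24.4, 30.4 and 25.1 CPM against 11.7, 15.3 and 10.7 CPM (log2 fold change 1.08, adjusted p = 5.84e-05). Col6a5 had 149, 130 and 137 CPM against 87.4, 116 and 122 CPM (log2 fold change 0.36, adjusted p = 0.030). Col6a6 went the other way, with 232, 203 and 218 CPM against 235, 308 and 357 CPM, a change of -0.46 in log2 (adjusted p = 0.0121), and its groups were separated only by the small gap between p16+ replicate 1 and p16- replicate 1.

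The calls of Col6a5 and Col6a6 were lost with some libraries left out, while the direction stayed the same. Col6a5 had an adjusted p of 0.0514 to 0.129 without p16+ replicate 1, 2 or 3 and of 0.0518 without p16- replicate 1, and of 0.0675 with library totals alone as the scaling. Col6a6 had an adjusted p of 0.0735 without p16+ replicate 2, 0.0604 without p16+ replicate 3 and 0.0968 without p16- replicate 3. Over these fits the log2 fold change was 0.23 to 0.40 for Col6a5 and -0.47 to -0.32 for Col6a6.

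The network collagens of the short-chain class were among those with large rises. Col8a1 and Col8a2 encode the chains of type VIII collagen, the hexagonal lattice of the corneal basal layer and of remodelling vessel walls. Col8a1 had 374, 409 and 411 CPM in p16+ and 128, 175 and 127 CPM in p16- libraries, giving a log2 change of 1.47 (SE 0.11, adjusted p = 2.64e-07) or 2.77-fold. Col8a2 had 57.2, 47.0 and 56.6 CPM against 19.0, 21.3 and 18.4 CPM, giving a log2 change of 1.45 (SE 0.10, adjusted p = 2.0e-07). The lowest p16+ value of each gene was more than the highest p16- value by a wide margin. Col10a1, the chain of hypertrophic cartilage, was not tested; it had 3, 1 and 0 counts in p16+ and 8, 3 and 0 counts in p16- libraries, at or near the 3 counts below which a level is not resolved.

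Col7a1, the single chain of the anchoring fibrils that tie skin epithelium to the dermis, had 35.2, 40.8 and 41.5 CPM in p16+ and 9.46, 14.0 and 12.8 CPM in p16- libraries. All p16+ values lay far above the p16- values, and the log2 change was 1.70 (SE 0.14, adjusted p = 5.13e-07), or 3.24-fold, the largest rise among collagen genes with a mean above 10 CPM in p16+ libraries. The summed level of the 8 epithelial markers was 3.98 to 5.56 CPM in p16+ and 20.5 to 21.5 CPM in p16- libraries, most of it Krt19. Whether epithelial cells had a part in the level of Col7a1 was not tested.

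FACIT chains held both ends of the range. Col12a1, which binds type I fibrils under tension in tendon and muscle sheaths, had 514, 649 and 585 CPM in p16+ and 199, 315 and 220 CPM in p16- libraries, without overlap (log2 fold change 1.25, SE 0.15, adjusted p = 6.19e-05). Its close relative Col14a1, known from mature connective tissue, had 2400, 2388 and 2446 CPM against 1919, 2473 and 2359 CPM, and these values overlapped (log2 fold change 0.10, adjusted p = 0.539). Col16a1, which lies at the border of fibrils and cells, rose modestly (634 to 683 against 483 to 516 CPM, log2 fold change 0.42, adjusted p = 0.000906).

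Col20a1 fell more than any other collagen gene. It had 11.2, 8.77 and 7.45 CPM in p16+ and 61.9, 38.3 and 49.9 CPM in p16- libraries, giving a log2 change of -2.45 (SE 0.17, adjusted p = 1.77e-07), or 5.46-fold lower, so that even the highest p16+ library was below the lowest p16- library by a wide margin. The summed level of the 10 Schwann cell markers, of which 7 were lower, was 86.4 to 92.0 CPM in p16+ and 118 to 191 CPM in p16- libraries. The part of Schwann cells in the fall of Col20a1 was not tested.

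Col22a1, the FACIT chain of the junction between muscle and tendon, had the largest log2 fold change of all collagen genes, at low and uneven counts. It had 213, 57 and 284 counts in p16+ and 26, 30 and 17 counts in p16- libraries (log2 fold change 3.07, SE 0.49, adjusted p = 0.000337), with p16+ replicate 2 the lowest of its group yet above every p16- library. Muscle fibre and satellite cell markers were low in both groups, with 2 of 10 higher and a summed level of 29.7 to 42.8 CPM in p16+ and 25.3 to 29.3 CPM in p16- libraries. Type IX collagen, which coats cartilage fibrils, was at low counts. Col9a2 had 56, 33 and 53 counts against 24, 5 and 3 counts (log2 fold change 2.30, adjusted p = 0.0357), and its adjusted p was 0.102 to 0.121 without p16+ replicate 1, without p16+ replicate 3, without p16- replicate 2 or without p16- replicate 3; without p16- replicate 1 its log2 fold change was 3.64. Col9a3 had 63, 19 and 28 counts against 136, 61 and 67 counts, which overlapped (log2 fold change -1.12, adjusted p = 0.128); without p16+ replicate 1 the adjusted p was 0.0335. Col9a1 (8, 9 and 0 counts against 0 in every p16- library) and Col19a1 (5, 8 and 14 against 0, 16 and 5 counts) did not pass the filter.

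Both multiplexins, basement membrane proteoglycans whose C-terminal pieces can be released, were higher. Col15a1 had 1617, 1667 and 1665 CPM in p16+ and 1007, 1159 and 1131 CPM in p16- libraries (log2 fold change 0.59, adjusted p = 7.4e-05). Col18a1, the source of endostatin, had 1190, 1300 and 1177 CPM against 490, 653 and 550 CPM (log2 fold change 1.11, adjusted p = 1.28e-06). Both are found in basement membranes, whose most abundant chain here, Col4a1, did not pass the test.

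Among chains anchored in the cell membrane, 1 of 4 passed. Col23a1 had 15.4, 20.4 and 18.8 CPM in p16+ and 11.3, 14.1 and 11.6 CPM in p16- libraries (log2 fold change 0.56, adjusted p = 0.0118), and its adjusted p was 0.0534 to 0.0741 without p16+ replicate 2, without p16+ replicate 3 or without p16- replicate 3. Col13a1, Col17a1 and Col25a1 had between 4 and 69 counts in every library, with log2 fold changes of 0.42, -0.41 and 0.48 that did not pass, and for each of them the groups overlapped. Col28a1, known from peripheral nerve, had 14.2, 14.8 and 23.5 CPM against 13.4, 11.5 and 12.8 CPM (log2 fold change 0.48, adjusted p = 0.0714); without p16+ replicate 1 the adjusted p was 0.037, without a filter 0.00845 and with DESeq2 0.0498. Col26a1 had 17 to 61 counts in every library and did not pass (log2 fold change 0.21).

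Collagen messages together took up a larger part of the p16+ transcriptome. They made up 17.9%, 18.8% and 18.2% of all counts in p16+ libraries and 10.8%, 13.1% and 12.2% in p16- libraries, or 18.3% ± 0.44 and 12.01% ± 1.14. The 3 values of each group did not overlap, and the two-sided exact permutation test gave p = 0.1, which no arrangement of 3 against 3 libraries can go below. Col1a1, Col1a2 and Col3a1 alone gave 75.9% to 76.0% of the collagen counts in p16+ and 73.1% to 73.8% in p16- libraries.

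**Figure D4:**
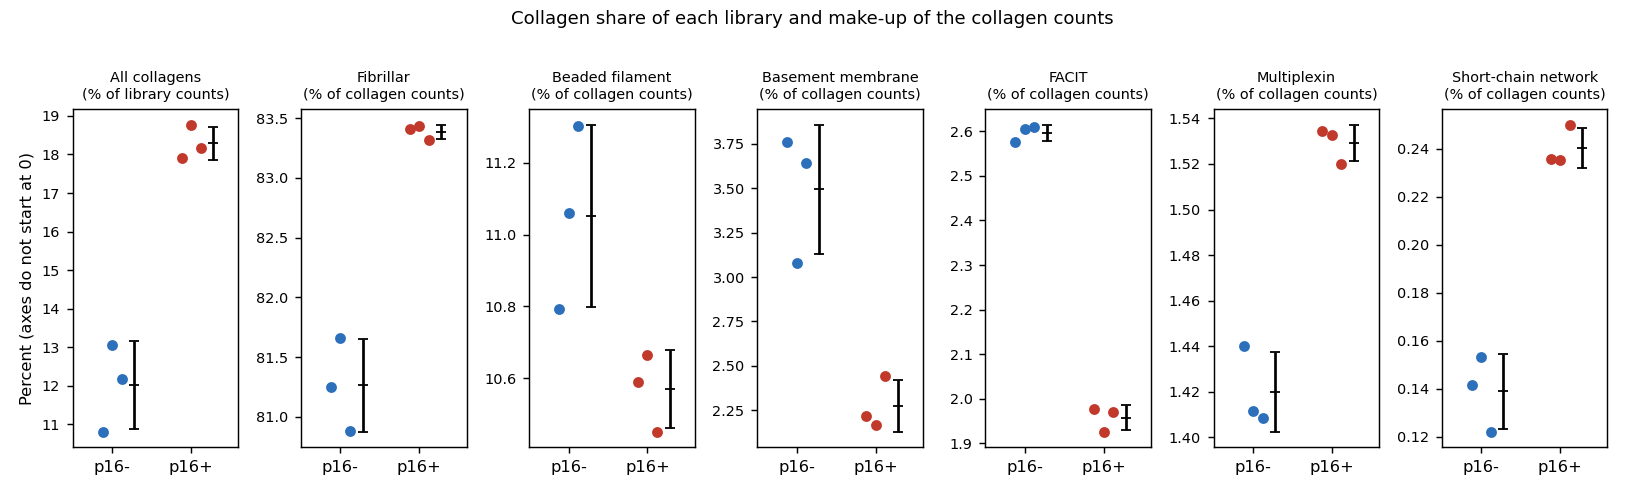
Percent of all counts that fell in collagen genes (first panel) and percent of collagen counts in 6 of the classes (other panels), 1 point per library with mean and SD beside them; axes do not start at 0. The groups do not overlap in any of the panels, with the fibrillar, multiplexin and short-chain shares higher in p16+ and the beaded filament, basement membrane and FACIT shares lower.

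Within the collagen counts the make-up moved as well. The fibrillar share was 83.4% ± 0.0584 in p16+ and 81.3% ± 0.386 in p16- libraries, and the basement membrane share was 2.28% ± 0.146 and 3.50% ± 0.363. FACIT chains took 1.96% and 2.60%, beaded filament chains 10.6% and 11.1%, multiplexins 1.53% and 1.42%, short-chain network chains 0.24% and 0.139%, and the anchoring fibril gene 0.0208% and 0.0102%. Each of these 7 shares showed no overlap between groups (exact permutation p = 0.1, adjusted p = 0.129 over the 9 classes), whereas the transmembrane and other classes overlapped (exact permutation p = 0.3 and 0.5). Because shares sum to 100, the abundant chains set the others: with Col1a1, Col1a2 and Col3a1 left out, the beaded filament share was higher in p16+ libraries, by 2.20 percentage points, where it was lower by 0.482 points with them (signed difference -0.482).

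**Figure D5:**
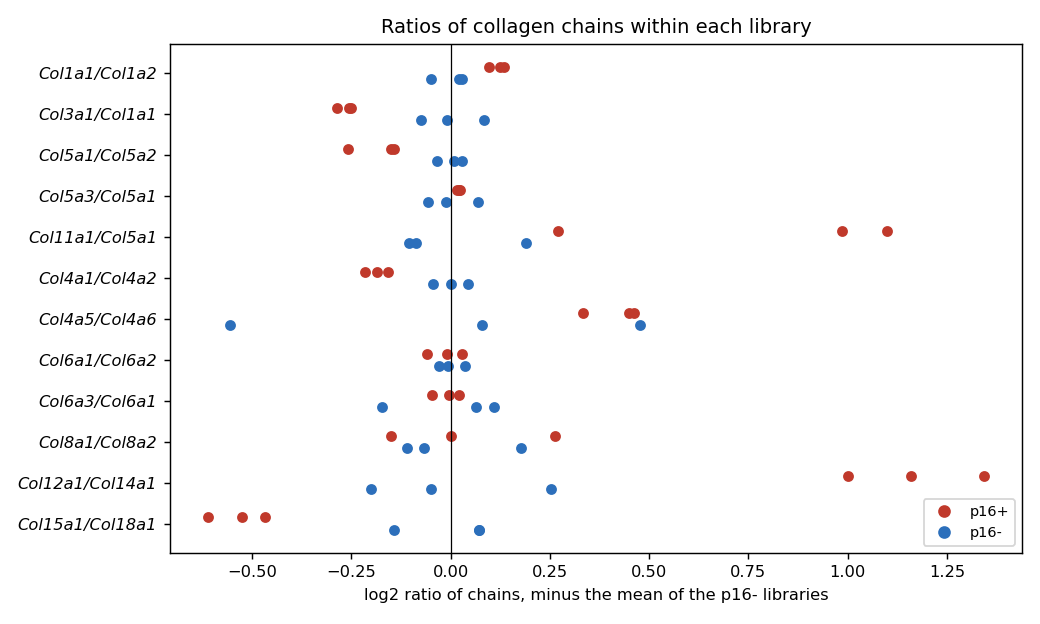
Log2 ratio of chain pairs in each library, per kb of exonic length and relative to the mean of the p16- libraries, 1 point per library. The p16+ points lie apart from the p16- points in 7 of 12 pairs, and overlap with them in the other 5: Col6a1/Col6a2, Col6a3/Col6a1, Col8a1/Col8a2, Col5a3/Col5a1 and Col4a5/Col4a6.

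Ratios between chains overlapped between groups in some pairs and not in others. For each of 12 pairs the ratio of counts per kb of exonic length was compared, which does not depend on the normalization between libraries. Within type VI the groups overlapped: Col6a1/Col6a2 was 2.02 in p16+ and 2.04 in p16- libraries (exact permutation p = 0.7), Col6a3/Col6a1 was 0.334 and 0.336 (p = 1), and for type VIII, Col8a1/Col8a2 was 4.26 and 4.16 (p = 0.7). Col1a1/Col1a2 went from 1.85 in p16- to 2.01 in p16+ libraries and Col4a1/Col4a2 from 1.55 to 1.36, without overlap between groups. The other type IV pair, Col4a5/Col4a6, overlapped, at 75.4 in p16+ and 56.5 in p16- libraries (exact permutation p = 0.4). Apart from Col5a1/Col5a2, the remaining pairs without overlap set chains of different collagen types against each other. Those mixed pairs do not describe the make-up of 1 trimer type. Col3a1/Col1a1 went from 1.47 to 1.22 and Col15a1/Col18a1 from 2.16 to 1.49, each from p16- to p16+ libraries. Col5a1/Col5a2, within type V, went from 1.09 to 0.957. The widest shift was between 2 FACIT types, with Col12a1/Col14a1 at 0.0494 in p16- and 0.111 in p16+ libraries. Col11a1/Col5a1 differed by 0.78 on the log2 scale. The 7 pairs without overlap had an exact permutation p of 0.1, the smallest possible, and an adjusted p of 0.171 over the 12 pairs. Levels of a ratio depend on the length used: by the longest coding transcript, Col1a1/Col1a2 was 0.957 in p16+ and 0.881 in p16- libraries, whereas differences between groups do not.

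Another 4 ratios were chosen after the values were seen and are therefore given as descriptions, without p-values. Within types IV and VI, the minor to major ratio Col4a5/Col4a1 was 0.0225 in p16+ and 0.0432 in p16- libraries, and Col6a6/Col6a3 was 0.0456 and 0.0960. Col4a4/Col4a3 was 2.15 and 1.75, with overlap between groups. Col18a1/Col4a1, a multiplexin over a type IV chain, was 0.511 and 0.238.

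Genes that make, process and cut collagen gave context for these levels. Of 25 genes of collagen synthesis and secretion, 18 were higher and 1 lower (median log2 fold change 0.40). Fkbp10, a chaperone of the triple helix, rose from 215 to 334 CPM (log2 fold change 0.63, adjusted p = 6.71e-05) and P3h1, a prolyl hydroxylase, from 130 to 198 CPM (0.61, adjusted p = 0.000116). The exception was Colgalt2, a collagen galactosyltransferase, which fell from 52.9 to 23.3 CPM (log2 fold change -1.18, adjusted p = 1.97e-06), while its homologue Colgalt1 rose (0.46, adjusted p = 0.000661). Among 16 genes of procollagen processing and crosslinking, 14 were tested, with 8 higher and 2 lower. Lox, the main lysyl oxidase, had 709, 908 and 901 CPM in p16+ and 351, 447 and 348 CPM in p16- libraries (log2 fold change 1.14, adjusted p = 3.56e-06). Pcolce2, an enhancer of C-propeptide removal, had 94.6, 67.7 and 67.3 CPM against 320, 280 and 323 CPM (log2 fold change -2.01, adjusted p = 5.24e-08). Its paralogue Pcolce did not pass (log2 fold change 0.12, adjusted p = 0.329).

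Proteins that organise fibrils, and receptors, were mixed. Of 15 fibril organizers 8 were higher and 2 lower. Bgn, the proteoglycan biglycan, had a log2 fold change of 1.07 (adjusted p = 1.52e-06) and Sparc, a collagen-binding glycoprotein, one of 0.81 (adjusted p = 3.56e-06), whereas the leucine-rich proteoglycan gene Ogn was lower (-0.74, adjusted p = 1.48e-05), as was Tnxb, a tenascin (-0.63, adjusted p = 0.000288). Of 13 receptors 12 were tested, with 5 higher and 4 lower. Among integrin chains that bind collagen, Itga1 (0.87, adjusted p = 3.87e-05) and Itga10 (1.06, adjusted p = 0.000108) were higher. Itga11 (-0.76, adjusted p = 9.26e-06) and Itga2 (-0.62, adjusted p = 0.000882) were lower, as was the receptor gene Antxr2 (-0.82, adjusted p = 1.04e-05). Of the discoidin receptors Ddr1 was higher (0.35, adjusted p = 0.0141) and Ddr2 lower (-0.58, adjusted p = 0.000126).

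Genes of collagen breakdown and of its inhibition were mostly higher. The list of 18 genes includes the inhibitor genes Timp1, Timp2 and Timp3. Of these 18 genes 17 were tested, with 10 higher and 3 lower, inhibitors included (median log2 fold change 0.45). Mmp13, a collagenase, had 101, 166 and 150 CPM in p16+ and 24.7, 38.6 and 27.6 CPM in p16- libraries (log2 fold change 2.20, adjusted p = 0.00052). Mmp3 had a log2 fold change of 1.28 (adjusted p = 6.76e-07) and the lysosomal collagen-cleaving protease gene Ctsk one of 0.78 (adjusted p = 6.06e-06). Inhibitors of these enzymes diverged, with Timp1 higher (1.41, adjusted p = 1.59e-07) and Timp2 (-0.25, adjusted p = 0.0399) and Timp3 (-0.55, adjusted p = 0.000273) lower. Leukocytes also make some of these proteases. Of 16 leukocyte markers 13 were tested, with 6 higher and none lower, and 7 did not pass, among them Ptprc (adjusted p = 0.0602). Their summed level was 286 to 334 CPM in p16+ and 205 to 229 CPM in p16- libraries, most of it Lyz2 (168 and 124 CPM). The part of leukocytes in the levels of these genes was not tested.

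The stretches upstream of the genes were read for those chains whose change stood out. RefSeq start sites of GRCm38.p6 were found for 35 of the 44 genes, 21 of them higher, 5 lower and 9 that did not pass or were not tested. Each of 6 motifs was searched on both strands in the 250 bases before the start: TATAAA, which is known as the TATA box, then CCAAT, which is bound by the factor NF-Y, then GGGCGG, the GC box bound by the SP family, then TGACTCA, which is bound by the AP-1 dimer, then GGAATG, which is bound by TEAD factors, and CAGACA, which is bound by SMAD factors. GGGCGG occurred upstream of 16 of 21 genes that were higher, 3 of 5 that were lower and 2 of the 9 others, and upstream of 35.4% of 27025 genes. CAGACA occurred in 7 of 21, 1 of 5 and 1 of 9 (19.3% of all genes), CCAAT in 7, 1 and 5 (37.5%), TATAAA in 2, 0 and 3 (14.3%), GGAATG in 3, 1 and 0 (14.4%) and TGACTCA in 1, 0 and 0 (5.16%). The shares over all genes include genes that were not tested here, so that they are not a matched background for the genes called. Such matches are descriptions of the sequence and not of binding.

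The last 100 bases before the start are shown for the most abundant chain, for the type VII and type VIII genes, whose rises are given above, and for Col20a1, which fell, each 5′ to 3′ on the strand of the gene with motif matches on either strand in capitals. Those of Col3a1 (chr1:45311438-45311537, plus strand), Col7a1 (chr9:108953486-108953585, plus), Col8a1 (chr16:57754738-57754837, minus), Col8a2 (chr4:126286694-126286793, plus) and Col20a1 (chr2:180986435-180986534, plus) are from RefSeq.
Col3a1: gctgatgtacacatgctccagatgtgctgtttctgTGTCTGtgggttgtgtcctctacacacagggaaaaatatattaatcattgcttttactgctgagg
Col7a1: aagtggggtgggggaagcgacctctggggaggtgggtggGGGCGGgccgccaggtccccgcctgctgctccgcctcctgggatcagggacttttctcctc
Col8a1: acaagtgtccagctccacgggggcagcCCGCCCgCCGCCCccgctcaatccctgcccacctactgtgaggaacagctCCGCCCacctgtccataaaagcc
Col8a2: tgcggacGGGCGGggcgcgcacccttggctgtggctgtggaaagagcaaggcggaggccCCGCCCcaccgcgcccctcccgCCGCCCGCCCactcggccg
Col20a1: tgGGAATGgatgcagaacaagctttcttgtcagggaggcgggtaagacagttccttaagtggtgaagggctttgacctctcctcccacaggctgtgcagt

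In these windows GGGCGG was matched 3 times before Col8a1, 4 times before Col8a2, where the last matches overlap, and 1 time before Col7a1. It was not found in the windows of Col3a1 and Col20a1, which held 1 match to CAGACA and 1 to GGAATG.

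Neighbouring collagen genes that changed in the same direction were found beyond type IV. Col3a1 and Col5a2 lie 24.6 kb apart on chromosome 1 and were both higher, and Col6a2 and Col6a1 lie 85.2 kb apart on chromosome 10 and were both higher. Col6a6, Col6a5 and Col6a4 on chromosome 9 gave the exception described above, with Col6a6 lower and both others higher. Exons of other genes covered at most 6.07% of the exonic length of any collagen gene, the most in Col9a3. The share of fragments that fell in these stretches was not measured.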

How the data were processed

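The collagen genes, their classes and the other gene lists were chosen with earlier results of these data known. The authors deposited raw counts: per the file headers, featureCounts 1.6.0 assigned each read pair as 1 fragment to the exons of a GENCODE vM21 gene, and the command set nothing for strand, for genes that overlap or for reads that map to several places. Per the submitters' processing notes, bcl2fastq made the reads (paired-end, 50 bp per the labels) and STAR 2.7.3a and the build GRCm38.p6 were used. Each of the 55536 identifiers was found in vM21, which gave symbols, lengths and coding sequences.

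From these counts, edgeR 4.0.16 in R 4.3.3 was run on 15903 genes kept by filterByExpr in all 6 libraries, with TMM factors, group as the only term, and the robust quasi-likelihood F test with Benjamini-Hochberg adjustment; this gave every adjusted p of a gene unless DESeq2 (1.42.0) is named. CPM used TMM-scaled library sizes. SE is the log2 fold change divided by the square root of F. The common biological coefficient of variation was 0.158. Shares and ratios (0.5 added to each count) were compared with two-sided exact permutation tests. Every collagen gene was accounted for, and up to 4 genes per other list were named, mostly by smallest p among those that passed. Pcolce, Colgalt1, Itga2, Ddr1, Ddr2, Mmp13, Timp2, Timp3, Sox10, Scx, Tnmd, Cnmd, Lyz2 and markers at 0 were named after their values were seen. Alternatives were RLE and upper-quartile factors, library totals alone, TMM without collagen genes, no filter, a stricter filter (CPM of at least 1 in 3 libraries), DESeq2, a replicate block, and leaving out each library.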

Additional observations from a re-analysis of the deposited data

How the results depend on the processing

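Of the 31 collagen genes that passed the threshold, 25 passed it in every alternative that tested them; the others were Col4a5, Col4a6, Col6a5, Col6a6, Col9a2 and Col23a1. The number of collagen genes higher was 22 to 28 and that of lower ones 4 to 7 over all alternatives. The labels do not say whether the same replicate numbers mark paired libraries. Deviations of same-numbered libraries from their group means had correlations of 0.0284, 0.0821 and -0.0046, and p16+ replicate 1 correlated best with p16- replicate 3. With 3 libraries in each group such correlations cannot decide whether libraries were paired. With the replicate block 27 collagen genes were higher and 6 lower; Col4a5 then had an adjusted p of 0.264, and Col4a2 (0.040), Col9a3 (0.0472) and Col28a1 (0.0385) passed. For the basement membrane chains, 1 rather than 0 was higher with DESeq2 and with the replicate block, and 2 FACIT chains were lower with the block. Over the libraries left out in turn, 1 to 2 FACIT chains and 0 to 1 beaded filament chains were lower and 0 to 1 transmembrane chains were higher. Apart from the beaded filament share, which was 2.20 points higher without Col1a1, Col1a2 and Col3a1, signs changed only in genes that had not passed and in ratios whose groups overlapped. Col4a1 had a log2 fold change of -0.052 with library totals alone and Col25a1 one of -0.061 with the replicate block. Over the libraries left out in turn, the log2 fold change lay between -0.030 and 0.080 for Col4a1 (-0.0064 without p16- replicate 1), between -6.2e-05 and 0.175 for Col14a1, between -0.92 and 0.97 for Col25a1 and between -0.25 and 0.59 for Col26a1 (-0.096 without p16- replicate 1). The difference in log2 ratio lay between -0.0093 and 0.054 for Col5a3/Col5a1, between -0.034 and 0.0095 for Col6a1/Col6a2, between -0.097 and 0.044 for Col6a3/Col6a1, and between -0.076 and 0.131 for Col8a1/Col8a2. The cause of these changes was not tested. The log2 fold change of Col22a1 ranged from 2.58 to 3.51. Counts limit Col9a1, Col10a1 and Col19a1, which were not tested.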
